A study of Mus musculus with 2 samples.

Results

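The genes examined here encode the enzymes that write and erase methylation of lysine 4 on histone H3 (H3K4) and the subunits they work with. The members were the SET1 methyltransferase genes Setd1a and Setd1b, the shared subunit genes Ash2l, Rbbp5, Wdr5 and Dpy30, and the KDM5 demethylase genes Kdm5a, Kdm5b and Kdm5c. They were found by gene symbol, as probe sets whose only platform symbol was that of a member, with no threshold on measured values, although results of these data were known when the genes were listed. All 9 were found, on 10 probe sets, among 19938 named genes. The cells were mouse embryonic stem (ES) cells, pluripotent cells grown here on gelatin with leukemia inhibitory factor (LIF), and their RNA was hybridized to 2 arrays of the Mouse Gene 1.0 ST type from Affymetrix. Induced cells had received doxycycline over 3 days before sorting by green fluorescent protein (GFP), whereas non-induced cells had neither doxycycline nor a sort, and each group gave 1 array. Both carried the CTCFL_V5_GFP transgene, in which CTCFL, a testis-specific relative of CTCF, is fused to a V5 tag and GFP under a promoter that answers to the doxycycline-dependent activator rtTA made from the ROSA26 locus. How many clones of this line were used for the arrays is not given in the sources used here.

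Trimethylated H3K4 marks active promoters and monomethylated H3K4 marks enhancers. The mark is placed by SET1 and MLL complexes, in which WDR5, RBBP5, ASH2L and DPY30 form a common module that the catalytic subunit needs for full activity, and the KDM5 enzymes, which contain a JmjC domain, remove the di- and trimethylated states. In ES cells this system acts at promoters rich in CpG dinucleotides, to which CXXC1, a subunit of the SET1 complexes, can bind when they are unmethylated. SET1A, the product of Setd1a, has been described as a partner of CTCFL, so that the question here was whether the RNA of the writers and erasers differed when CTCFL was present. Methylation of H3K4 itself was not measured on these arrays.

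There was 1 array per group, so no test was possible and each difference (induced minus non-induced, on the log2 scale) describes these arrays only. Doxycycline, sorting and CTCFL differed together and cannot be told apart. Ctcfl had a log2 signal of 9.44 in induced cells, against 5.99 in non-induced cells, as the labels require. The floor used throughout was the median over all gene values, 6.36, and a gene reached it if its higher value did. The 10 ES cell markers examined all reached it, with differences between -0.46 and 0.24. Of 8 fibroblast markers 7 were above 0 and 4 reached the floor (mean over the 8 of 5.83 in induced cells, against 5.52 in non-induced cells). Of all named genes 48.6% were below 0. The 4 at the floor, Col1a1, Col1a2, Col3a1 and Thy1, were all higher, by 0.41 to 0.53, while Dcn, below the floor, differed by -0.28. Col3a1, which gave the 0.53, reached the floor only by its induced value (6.60, against 6.07 in non-induced cells). Of 7 endoderm markers 5 were above 0 and 4 reached the floor (mean over the 7 of 6.25 in induced cells, against 6.16 in non-induced cells). Of these 4, Gata4 and Gata6 were above 0 (0.26 and 0.25), and Foxa2 and Sox7 below (-0.85 and -0.06). Gata6 reached the floor only by its induced value (6.37) and Foxa2 only by its non-induced value (6.68). Neural markers were above 0 in 5 of 6 genes, of which Pax6 differed by 1.12 below the floor, and mesoderm markers in 3 of 5. At the floor were 2 neural markers and 1 mesoderm marker, Tbx6 (0.76). Tbx6 reached it only by its induced value (6.60, against 5.83 in non-induced cells). The part of such cells in the values below was not tested.

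The members lie on chromosomes 1 (Rbbp5 and Kdm5b), 2 (Wdr5), 5 (Setd1b), 6 (Kdm5a), 7 (Setd1a), 8 (Ash2l), 17 (Dpy30) and X (Kdm5c), and all are protein-coding. Since the pathway acts at CpG-rich promoters, their own promoters were examined for this feature. RefSeq start sites of GRCm38.p6 were at hand for 6 of the 9 members. In the 250 bases before the start, Setd1a held 25 CG dinucleotides, Kdm5b 13, Wdr5 12, and Rbbp5 and Kdm5c 10 each, against a median of 6 over 32851 promoters of the same length. Dpy30 has 4 listed starts, of which 3 held 21 to 34 and the most upstream held 1. Setd1a and Rbbp5 are shown as the promoters with the highest and the lowest share of G and C, 70.4% and 40.0%, among members with 1 listed start, with each CG in capitals. At least as many CG dinucleotides as in Setd1a were found in 10.7% of all promoters, and at least as many as in Rbbp5 in 37.8%. CG reads the same on both strands and does not overlap itself. Neither CTCFL binding nor DNA methylation at these promoters was measured here.
Setd1a, chr7:127777139-127777388, plus strand: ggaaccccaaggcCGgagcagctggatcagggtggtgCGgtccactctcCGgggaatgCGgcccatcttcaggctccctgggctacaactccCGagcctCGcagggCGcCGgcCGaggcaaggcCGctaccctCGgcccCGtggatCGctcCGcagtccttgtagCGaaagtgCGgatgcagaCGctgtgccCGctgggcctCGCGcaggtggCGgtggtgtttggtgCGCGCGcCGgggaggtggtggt
Rbbp5, chr1:132477117-132477366, plus strand: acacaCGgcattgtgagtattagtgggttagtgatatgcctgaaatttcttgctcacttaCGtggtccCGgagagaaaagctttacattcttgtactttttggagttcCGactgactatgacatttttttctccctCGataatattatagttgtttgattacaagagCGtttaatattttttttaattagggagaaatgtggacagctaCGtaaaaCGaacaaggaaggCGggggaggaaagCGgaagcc

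The SET1 enzymes differed little between the arrays. Setd1a, which encodes a catalytic subunit of a SET1 complex (probe set 10557758), had a log2 signal of 7.11 in induced cells, against 7.32 in non-induced cells. The difference of -0.21, a ratio of 0.865, was the widest of the 9, and 56.7% of the 10697 genes at or above the floor differed more widely in either direction. Here and below, fewer cells that express a gene and less RNA per cell cannot be told apart. Setd1b, which encodes the catalytic subunit of the related complex, was read by 2 probe sets that went opposite ways. Probe set 10525495, which had the higher mean and stood for the gene, was at 7.05 in induced cells, against 7.20 in non-induced cells (difference -0.15). Probe set 10525489 was at 6.65 in induced cells, against 6.26 in non-induced cells (difference 0.39), and its non-induced value lay below the floor. The probe sets were thus 0.54 apart in their difference, and among 436 genes with 2 probe sets at or above the floor 13.99% were at least as far apart. The direction of Setd1b is therefore not settled by these arrays.

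The shared subunits were closer still. Ash2l (probe set 10577866), whose product activates the catalytic subunit together with RBBP5, had a log2 signal of 11.05 in induced cells, against 11.02 in non-induced cells. Dpy30 (10452867), which encodes the small subunit that binds ASH2L, was at 10.85 in induced cells, against 10.83 in non-induced cells. These differences of 0.03 and 0.02 were exceeded in size by 93.9% and 95.9% of the genes at or above the floor. Rbbp5 (10349809), which encodes a scaffold subunit, was at 8.75 in induced cells, against 8.87 in non-induced cells (difference -0.13). Wdr5 (10470427), which encodes the propeller protein that docks the catalytic subunit, was at 8.66 in induced cells, against 8.75 in non-induced cells (difference -0.09). All 4 subunit genes kept a linear signal in the induced array of 0.917 to 1.02 times that in the non-induced array.

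**Figure D1:**
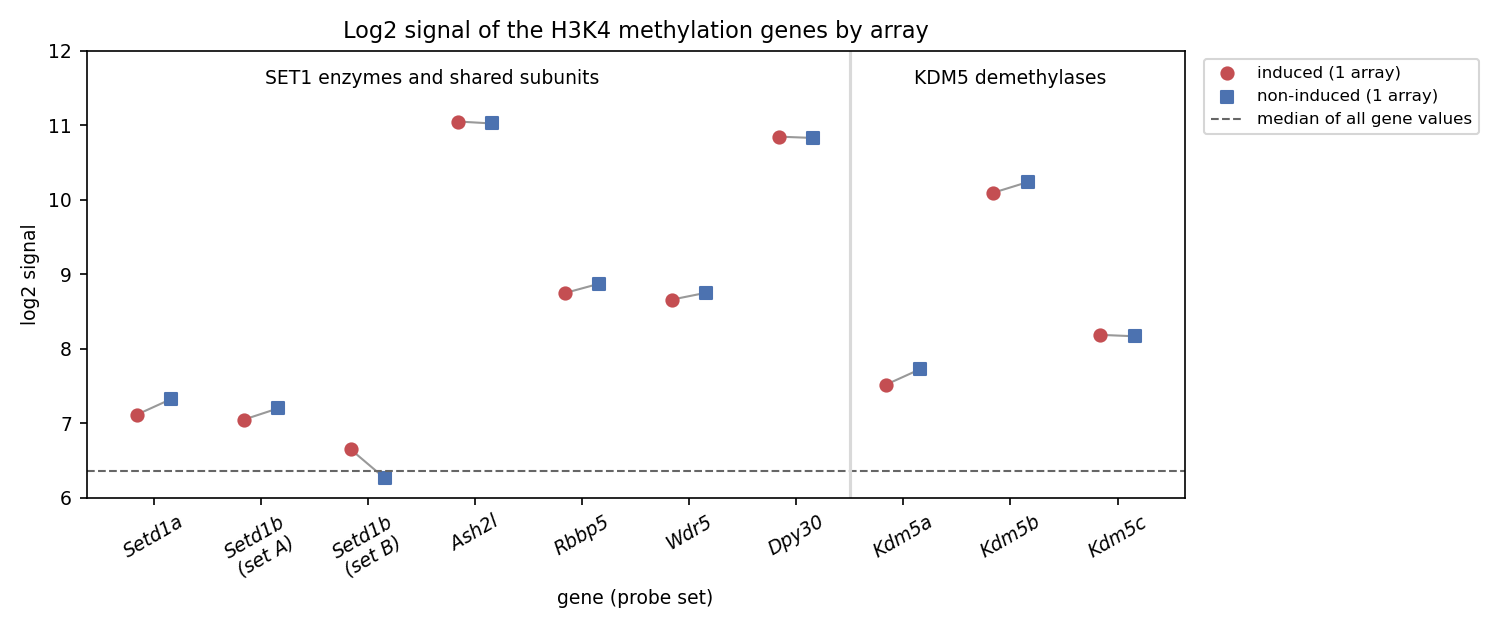
Log2 signal (vertical axis) of each member in the induced array (circles) and the non-induced array (squares), 1 array per group, with Setd1b shown for both probe sets (set A is 10525495 and set B is 10525489). The values of each gene lie close together, and the widest gap is that of Setd1b set B, at 6.65 in induced cells, against 6.26 in non-induced cells.

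Of the KDM5 demethylase genes Kdm5a and Kdm5b were lower in induced cells and Kdm5c was nearly level. Kdm5a (probe set 10541216), which encodes a demethylase first known in human cells as a retinoblastoma-binding protein, had a log2 signal of 7.52 in induced cells, against 7.73 in non-induced cells (difference -0.21). Kdm5b (10350046), whose product limits H3K4 trimethylation in ES cells, was at 10.09 in induced cells, against 10.24 in non-induced cells (difference -0.14). Kdm5c (10602644), the X-linked member that escapes X inactivation in the mouse, was at 8.19 in induced cells, against 8.17 in non-induced cells (difference 0.02). The differences of Kdm5a and Setd1a agreed to the second decimal, and those of Kdm5c, Dpy30 and Ash2l to within 0.01. Kdm5d, the Y-linked paralog, was far below the floor, at 4.19 in induced cells, against 4.13 in non-induced cells.

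As a set, the members lay inside the bulk of all genes. All 9 were at or above the floor, 6 were below 0 and 3 above, and the median difference was -0.13 (range -0.21 to 0.03). Over the genes at or above the floor the median was -0.03, with 53.4% below 0. None of the 9 was higher by log2 1 or more, where 0.477% of the genes at or above the floor were, and none was lower by as much, where 1.79% were. At the smaller size of log2 0.58 the members again gave 0 higher and 0 lower, against 5.31% and 8.45% of the genes. The middle 50% of genes at or above the floor had differences between -0.28 and 0.22, and 9 of 9 members lay between these values by the probe set used, while the other probe set of Setd1b (0.39) lay outside them. The writers, counting shared subunits, had a median of -0.11 over 6 genes and the KDM5 genes a median of -0.14 over 3, and their ranges overlapped. The median of the writers was above 0 after quantile normalization, at 0.03.

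**Figure D2:**
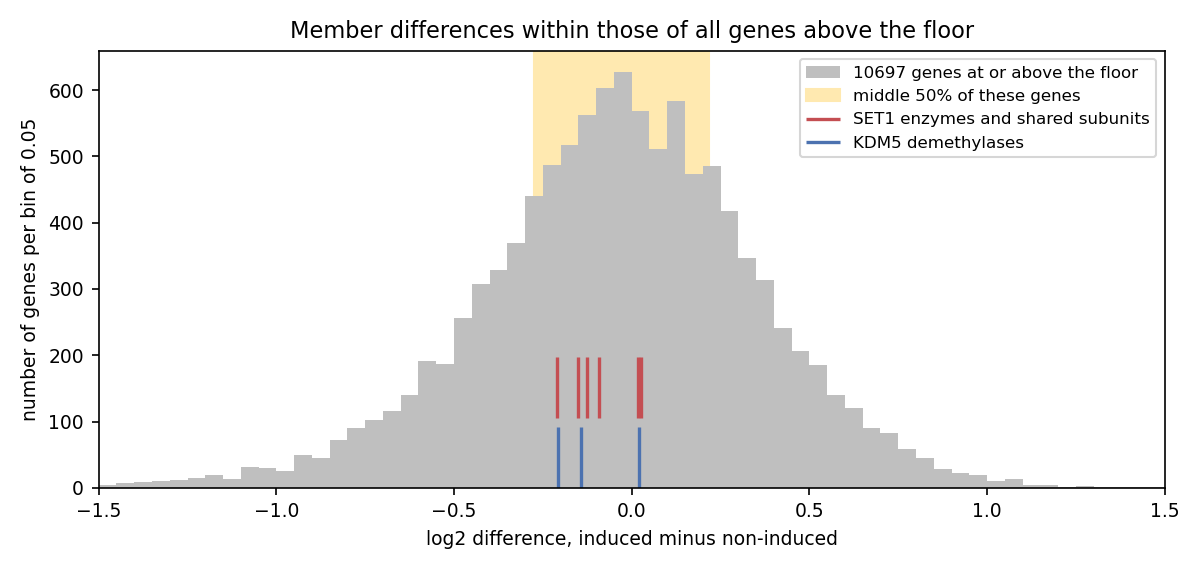
Number of genes (vertical axis) by log2 difference, induced minus non-induced (horizontal axis), for the genes at or above the floor, with the middle 50% shaded. Vertical lines mark the SET1 enzymes with shared subunits and the KDM5 demethylases, and all 9, by the probe set used for each gene, lie inside the shaded range of -0.28 to 0.22.

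No spread between samples could be had, so the agreement of probe sets that read the same gene was taken as the nearest measure of error within these arrays. Over 589 genes with several probe sets at or above the floor, the SD of each probe set's difference around the mean of its gene was 0.249. It holds both measurement error and true differences between the exons read, and does not hold any variation between cultures. Each of the 9 members differed by less than this SD by the probe set used, and the other probe set of Setd1b, at 0.39, by more. This SD sets no limit of detection, and small differences do not show that the RNA levels were equal.

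Most members changed sign with the treatment of the values. Only Setd1a, Kdm5a and Kdm5b were below 0 under each of the 5 other treatments of the values. Their ranges were -0.31 to -0.17, -0.31 to -0.12 and -0.24 to -0.04. Setd1b, Ash2l, Rbbp5, Wdr5, Dpy30 and Kdm5c changed sign in at least 1 treatment. A constant on the linear scale keeps every sign, centring lowered every gene, and the mean of probe sets changes only genes with several. For a gene below 0 with 1 probe set, here and below, only quantile normalization and removal of the trend could give a value above 0. Setd1a, Kdm5a and Kdm5b were at -0.17, -0.12 and -0.04 after the first and at -0.19, -0.14 and -0.06 after the second. Centring each array on its median lowered the median of all genes to -0.09, against 0.01 as deposited. It put 9 of 9 members below 0 (median -0.22), where 64.4% of the genes at or above the floor were. A second quantile normalization put 4 below 0 (median 0.01) and removal of the trend with signal level put 5 below 0 (median -0.02). Relative to the median of all genes in each scaling, the member median was -0.14 with the deposited values. After centring it was necessarily the same, since centring shifts all genes alike. This relative median was -0.12 with a constant added on the linear scale, -0.004 after quantile normalization and -0.02 after removal of the trend. How many members lay below 0 thus depended on the scaling.

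**Figure D3:**
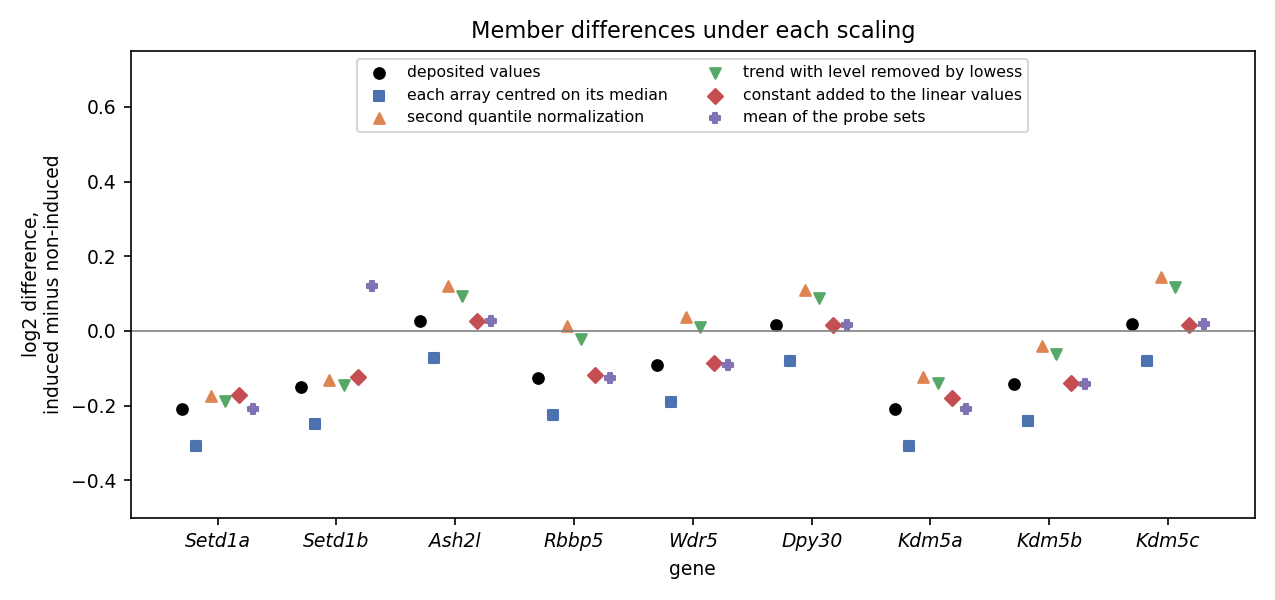
Log2 difference, induced minus non-induced (vertical axis), of each member with the deposited values and under the 5 other treatments named in the legend. Setd1a, Kdm5a and Kdm5b stay below 0 throughout, and centring gives the lowest value of every gene.

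The rest of the pathway was examined in 7 lists holding 49 further genes, all measured, of which 43 were at or above the floor. None was higher or lower by log2 1 or more. By the smaller size of log2 0.58, 6 were lower and 0 higher, against 8.45% lower and 5.31% higher among all genes at or above the floor. Their median difference was -0.10, with 33 of 49 below 0, against 48.6% of all named genes and 53.4% of those at or above the floor. After centring 41 were below 0 (median -0.20), where 64.4% of the genes at or above the floor were. After quantile normalization 28 were (median -0.10), where 47.2% of the genes at or above the floor were. Relative to the median of all genes, the median of the 49 was -0.12 with the deposited values. After centring it was necessarily the same, since centring shifts all genes alike. It was -0.11 after quantile normalization and after removal of the trend, and -0.09 with a constant added on the linear scale. The middle 50% of genes at or above the floor took in 32 of the 49.

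Among 5 further genes for subunits and partners of SET1 complexes, 4 were below 0. Their median was -0.08 as deposited and -0.18 after centring, but 0.04 after quantile normalization and 0.01 after removal of the trend. Cxxc1, which encodes the CpG-binding subunit, had a log2 signal of 7.13 in induced cells, against 7.52 in non-induced cells (difference -0.39). Bod1l, whose human product binds SETD1A, was at 6.06 in induced cells, against 6.48 in non-induced cells (-0.43), and Bod1 differed by 0.16. The induced value of Bod1l lay below the floor, which it reached only by its non-induced value. Wdr82, which ties the complex to RNA polymerase II, differed by -0.08 and so did Hcfc1, whose product is also found in MLL complexes, and both were above 0 after quantile normalization and after removal of the trend. The values of Cxxc1 and Bod1l ran from -0.49 to -0.32 and from -0.55 to -0.30 under the other treatments.

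All 4 MLL enzyme genes were below 0 with the deposited values, where 53.4% of the genes at or above the floor were. All 4 were also below 0 under each of the 5 other treatments. Of the genes at or above the floor, 64.4% were below 0 after centring and 47.2% after quantile normalization. For Kmt2a, Kmt2b and Kmt2c, with 1 probe set each, only quantile normalization and removal of the trend could have changed the sign. Kmt2c, an enhancer H3K4 methyltransferase gene, had a log2 signal of 7.09 in induced cells, against 7.52 in non-induced cells (difference -0.43). Kmt2a differed by -0.36 and Kmt2b, which acts at promoters of developmental genes, by -0.26. Kmt2d, the closest relative of Kmt2c, differed by -0.17 by the probe set used and by -0.48 by its other probe set, the dimmer of them. The list median was -0.31, between -0.41 and -0.24 under the other treatments, and none of the 4 passed log2 0.58. Whether these 4 differed from Setd1a and Setd1b could not be tested with 1 array per group.

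Of 7 subunits of MLL complexes 3 were below 0, and the median was 0.01 over the 7 and -0.17 over the 5 at or above the floor. The median over the 7 was below 0 after centring (-0.09), quantile normalization (-0.10) and removal of the trend (-0.11). Kdm6a, the X-linked H3K27 demethylase gene whose product sits in the complexes of KMT2C and KMT2D, had a log2 signal of 7.66 in induced cells, against 8.32 in non-induced cells (difference -0.67). Psip1, which encodes a chromatin tether of the menin complex, was at 8.12 in induced cells, against 8.73 in non-induced cells (difference -0.61). Both stayed below 0 under each treatment, at -0.77 to -0.56 and -0.71 to -0.48. Men1 and Pagr1a differed by 0.04 each, and both were below 0 after centring.

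**Figure D4:**
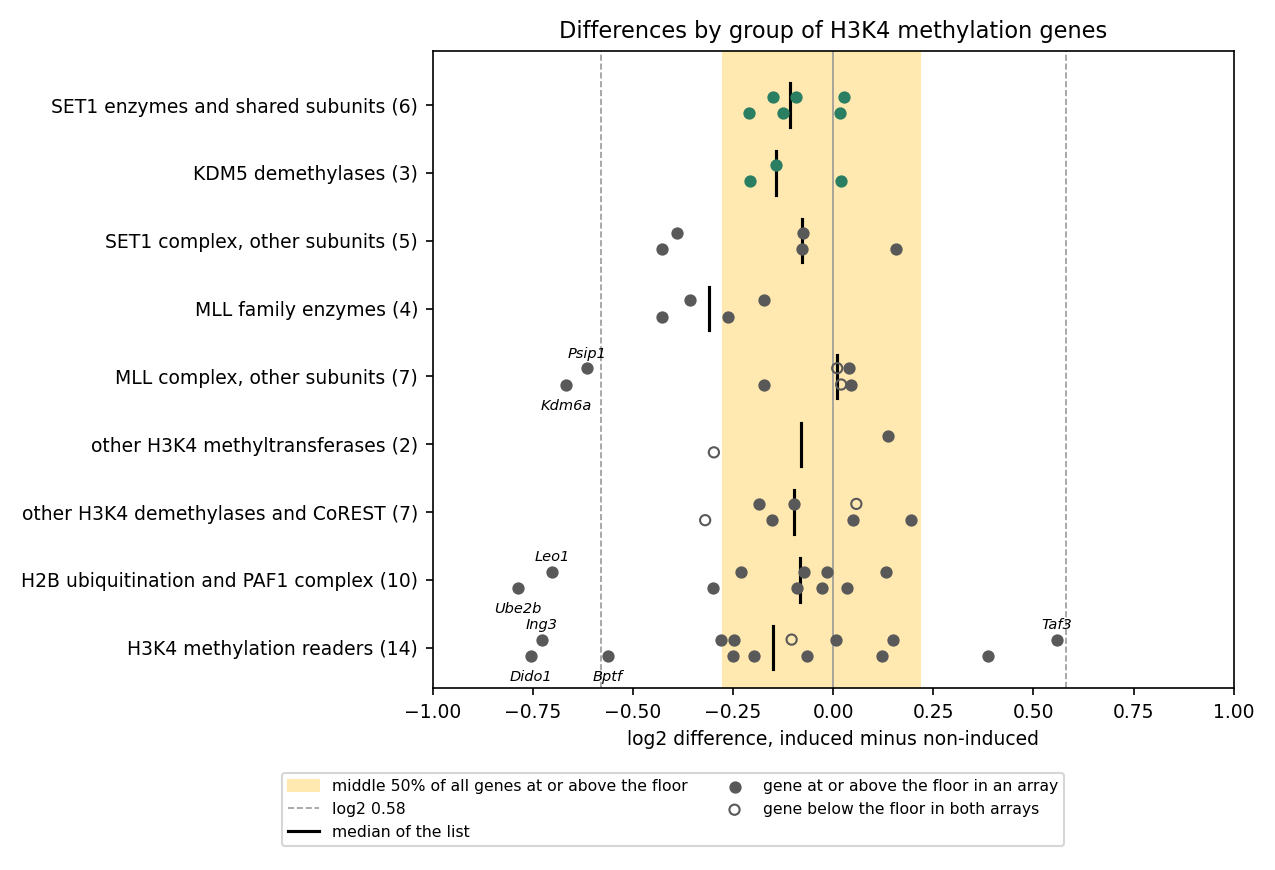
Log2 difference, induced minus non-induced (horizontal axis), of each gene by list, with the number of genes in brackets, the list median as a black bar and the middle 50% of genes at or above the floor shaded. Open circles are genes below the floor in both arrays, and the 6 genes left of the dashed line at log2 -0.58 are Kdm6a, Psip1, Ube2b, Leo1, Dido1 and Ing3.

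The lists of other H3K4 enzymes held values on both sides of 0. Setd7, a monomethyltransferase gene, differed by 0.14, and Prdm9, the meiotic methyltransferase gene, was below the floor at a log2 signal of 4.71 in induced cells, against 5.01 in non-induced cells (difference -0.30). Of 7 genes for other demethylases and the CoREST complex 4 were below 0 (median -0.10), the widest being the CoREST gene Rcor3, at -0.32 and below the floor in both arrays. Kdm1a, which encodes the demethylase LSD1 of mono- and dimethylated H3K4, was at 9.30 in induced cells, against 9.11 in non-induced cells, and the difference of 0.19 stayed above 0 under each treatment. Its paralog Kdm1b differed by -0.18, and the CoREST genes Rcor1 and Rcor2 by 0.05 and -0.15, that of Rcor1 being below 0 after centring.

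Ubiquitination of histone H2B by RNF20 and RNF40 with the conjugating enzymes UBE2A and UBE2B, helped by the PAF1 complex, precedes H3K4 methylation. Of these 10 genes 8 were below 0 with the deposited values, against 53.4% of the genes at or above the floor. The sign of the median of the 10 depended on the scaling. It was -0.08 as deposited, -0.18 after centring, 0.04 after quantile normalization and 0.01 after removal of the trend. Ube2b had a log2 signal of 9.06 in induced cells, against 9.85 in non-induced cells, or 0.579 times as much linear signal (difference -0.79), the widest difference of the 49 genes. Leo1, a PAF1 complex gene, was at 6.87 in induced cells, against 7.57 in non-induced cells (difference -0.70). The other PAF1 complex genes, Paf1, Ctr9, Cdc73, Rtf1 and Wdr61, differed by -0.09 to 0.03, and each changed sign under at least 1 other treatment. Rnf40 differed by 0.13 and its partner Rnf20 by -0.30.

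Genes for proteins that read the mark went both ways, with 9 of 14 below 0 (median -0.15), against 48.6% of all named genes. Dido1, which encodes a protein with a PHD finger for methylated H3K4, had a log2 signal of 7.52 in induced cells, against 8.27 in non-induced cells (difference -0.75). Ing3, a subunit gene of an acetyltransferase complex, was at 7.38 in induced cells, against 8.10 in non-induced cells (difference -0.73). In the other direction Taf3, which encodes the TFIID subunit that binds trimethylated H3K4, was at 7.57 in induced cells, against 7.01 in non-induced cells (difference 0.56). Ing4 differed by 0.39. These 4 genes kept their sign under each treatment, and Taf3 lay between 0.46 and 0.60.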

How the data were processed

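RNA (300 ng per array) of 2 samples, 1 per group, was hybridized by the authors to Mouse Gene 1.0 ST arrays. The deposited values are log2 signals, 1 per probe set, which the authors computed by RMA (background correction, quantile normalization and summary over probes). RMA compresses fold differences of dim genes. For its version, the array annotation and the build, nothing is given in the sources used here. Of 35557 probe sets 21789 had 1 symbol in the platform annotation, and 21698 of these were matched by gene identifier to RefSeq (GRCm38.p6) for current symbols and chromosomes, which gave 19938 genes. For 999 genes with several probe sets, the set of highest mean was used. A gene counted as higher or lower at log2 1 or more (log2 0.58 as the smaller size) if its higher value reached the floor of 6.36. Depth has no meaning for arrays, and their number limits the precision. Alternatives were centring, quantile normalization, lowess (fraction 0.3), a constant of 32 on the linear scale, the mean of probe sets, other floors, and for the median the mean or 1 member left out. No test, random list or likeness of pattern was computed. The members and lists were chosen with earlier results of these data known. All members were named, and of each further list genes past log2 1 or otherwise, at or above the floor, the 2 widest in each direction. Genes named outside this rule were chosen after their values were seen. The calls at log2 1 and the centring were tested on simulated data, and the other steps were not. Python 3.11.15, numpy 2.4.6, pandas 2.3.3, statsmodels 0.14.6 and matplotlib 3.10.9 were used.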

Additional observations from a re-analysis of the deposited data

Results flagged for a closer look

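A probe set that the platform annotation gives to both Prrt2 and Pagr1a, and that therefore entered no comparison, read 6.99 on the log2 scale in induced cells, against 6.14 in non-induced cells. It was higher by 0.86, while the probe set of Pagr1a alone differed by 0.04. No probe set with several symbols named a member.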

How the results depend on the processing

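Of 145 values recomputed, 143 moved by less than the SD of probe sets around their gene mean (0.249), or for counts by no more than 1.5 times. That SD is wider than the difference of every member by the probe set used, so a value could change sign within it. The count of members below 0, 6 as deposited, was 9 after centring and 4 after quantile normalization and stayed within the limit for counts. These 143 values therefore do not show that signs were stable. With log2 0.58 in place of log2 1 the count of lower genes in the wider lists was 6 in place of 0, which follows from the smaller size. The mean of both probe sets put Setd1b at 0.12 in place of -0.15. Over all alternatives the differences of single members lay between -0.31 and 0.15, and their median between -0.22 and 0.01. With a constant on the linear scale 7 of 9 members lay inside the middle 50% of all named genes, which then ran from -0.15 to 0.17. Under the other scalings 9 of 9 did. The range in the figures is instead that of genes at or above the floor. The count of all genes past log2 1 depended on scaling as well, with 51 higher and 191 lower in the deposited values, 25 and 268 after centring, 45 and 160 after quantile normalization, 35 and 173 after lowess, and 10 and 108 with the constant. Leaving out a replicate would leave a group empty, since each has 1 array. No paired analysis was possible because the labels give no replicate numbers and no test was made.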
